A study of Chlamydomonas reinhardtii with 90 samples.

Results

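The genes described here are 10 genes of the Calvin-Benson cycle of the green alga *Chlamydomonas reinhardtii*, chosen by their gene identifiers for their place in the cycle, by a rule that uses no measured value, with earlier results of these data known. The reduction steps are represented by PGK1 (Cre11.g467770) and GAP3 (Cre01.g010900), and the triose and hexose steps by TPI1 (Cre01.g029300) and FBA3 (Cre05.g234550). SEBP1 (Cre03.g185550), TRK1 (Cre02.g080200), RPE1 (Cre12.g511900), RPI1 (Cre03.g187450) and PRK1 (Cre12.g554800) belong to the regeneration of the CO2 acceptor, and CP12 (Cre08.g380250) is a regulator. They make up 10 of the 17741 genes in the count table, and all 10 were among the 15541 genes that passed the filter on low counts and were tested. Wild-type strain CC1690 (21gr, mating type plus) was grown in photobioreactors in constant light at 25°C, in a medium that contains acetate, and the density was held steady by dilution. Cultures were then heated to 35°C or to 40°C for 24 h and returned to 25°C for 48 h. Each treatment had 15 time points, namely pre-heat, 8 in heat (0, 0.5, 1 and 2 h, then 4, 8, 16 and 24 h after the temperature was reached) and 6 in recovery (0, 2 and 4 h, then 8, 24 and 48 h after the return to 25°C). With 3 libraries of polyadenylated RNA at each time point, named by the replicate letters A, B and C, the series held 90 libraries. The pre-heat libraries at 25°C of the same treatment were the reference for every change. No culture kept at 25°C throughout was analysed here, and the 35°C and 40°C treatments came from different cultures, so temperature and culture cannot be told apart.

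Libraries held 10872030 to 35917831 counted reads, with a median of 22088535.5, and the 10 genes were deep in all of them. Their counts in a library ran from 575, for PGK1, to 205782, for FBA3, so that counting error was small beside the spread between replicates. No pair of libraries had identical counts. RNA came from whole cultures, so fewer cells with a transcript and fewer transcripts per cell cannot be told apart. Nothing in the sources used here says whether a replicate letter marks the same culture at successive time points, and p-values measure a change against the spread between the libraries of a group.

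The Calvin-Benson cycle fixes CO2 in the chloroplast stroma. Rubisco joins CO2 to ribulose bisphosphate, phosphoglycerate kinase and glyceraldehyde phosphate dehydrogenase spend the ATP and NADPH made by the thylakoid light reactions to reduce the product to triose phosphate, and the remaining enzymes rebuild the acceptor, the last step being the phosphorylation by phosphoribulokinase. Several of these enzymes are switched on in the light by thioredoxins, and in the dark the small protein CP12 binds glyceraldehyde phosphate dehydrogenase and phosphoribulokinase in an inactive complex. In algae grown with acetate, carbon also enters metabolism from the medium, so the cycle is not the sole source of carbon.

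Before heat the 10 genes were abundant, and their order by mean TPM was the same in both sets of cultures. Values in TPM are counts divided by gene length and expressed as a share of each library's transcripts, scaled to a sum of 1000000, so that levels can be compared between genes. FBA3, a fructose bisphosphate aldolase, was highest, with 1214 ± 4.92 TPM (SD, n = 3) in the 35°C cultures and 1237 ± 33.0 TPM (SD, n = 3) in the 40°C cultures. CP12 followed with 919.8 ± 98.6 TPM (SD, n = 3) and 1049 ± 45.3 TPM (SD, n = 3), and GAP3 with 849.6 ± 40.7 TPM (SD, n = 3) and 858 ± 25.4 TPM (SD, n = 3). PRK1, TRK1 and SEBP1 had means between 561 and 629.9 TPM. PGK1 stood at 401 and 385 TPM, RPE1 at 289.9 and 316, and RPI1 at 267 and 271. TPI1, the triosephosphate isomerase, was lowest, with 117 ± 8.96 TPM (SD, n = 3) and 116 ± 6.85 TPM (SD, n = 3). Neighbours in this order whose libraries overlapped were CP12 with GAP3, TRK1 with SEBP1 and RPE1 with RPI1 in the 35°C cultures, and PRK1 with TRK1 and TRK1 with SEBP1 in the 40°C cultures.

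The pre-heat libraries of the 40°C and the 35°C cultures were compared first. Changes were tested with edgeR's quasi-likelihood test on the counts, and a gene was called when its p, adjusted over all genes tested by the Benjamini-Hochberg method, was under 0.05, its log2 fold change was over 1 in size and its mean TPM differed by 1 or more. None of the 10 genes was called between the pre-heat sets, against 0.0257% of all genes. None had an unadjusted p under 0.05 in edgeR either, and none was called with DESeq2 or with limma. The log2 fold changes lay between -0.08 for PRK1 and 0.23 for CP12.

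The size of a change depended on how libraries were scaled. The log2 fold changes below use TMM factors, which set the change of a typical gene near 0. Scaling by library size alone or working on TPM shifted all 10 genes of a comparison by nearly the same amount. At 40°C recovery 2 h the log2 fold change of the median gene was 0.07 with TMM factors, 0.53 with library size and 0.70 on the log2(TPM + 1) scale. At 40°C heat 0.5 h the same medians were 0.01, -0.55 and -0.23. TPM values and TMM fold changes of 1 gene can therefore differ, and where library size or the log2(TPM + 1) scale did not make a call of the 10 genes, that is given with the result.

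**Figure D1:**
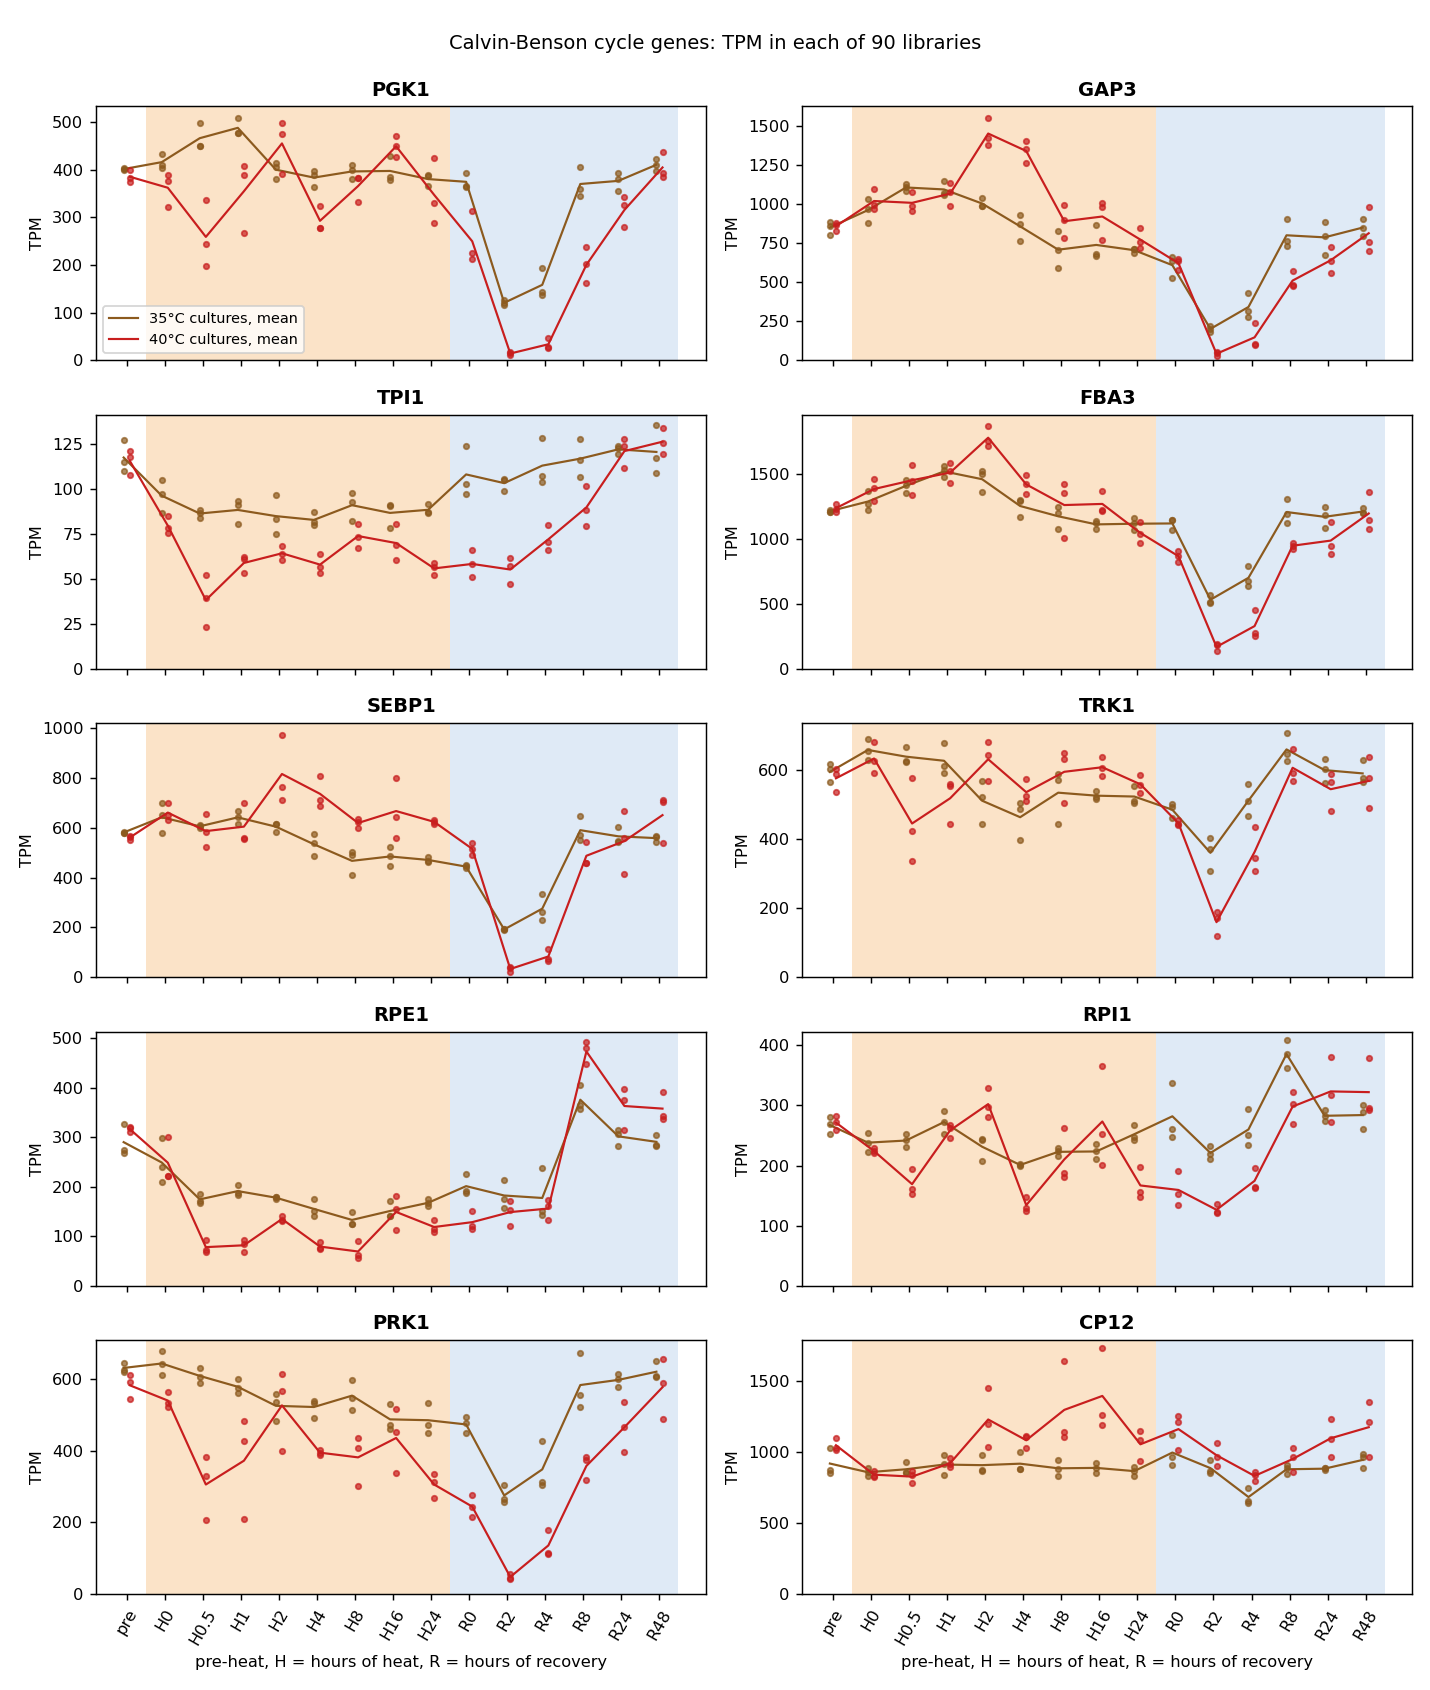
TPM (y axis, from 0) of each of the 10 Calvin-Benson cycle genes in all 90 libraries, against pre-heat, hours of heat (H, shaded orange) and hours of recovery at 25°C (R, shaded blue). Points are single libraries and lines are means of 3. PGK1, GAP3, SEBP1 and PRK1 are lowest at recovery 2 h in both treatments, RPE1 is low through 40°C heat, and CP12 keeps 93.31% of its pre-heat mean at 40°C recovery 2 h.

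During 24 h at 35°C the transcripts of the cycle rarely passed the fold threshold. Of 80 gene and time point pairs, 1 was called, and it was lower. Over the 8 heat time points in order, 7.88, 8.98, 10.1, 8.89, 8.54, 6.67, 3.29 and 4.54% of all genes were called in either direction. The single call was RPE1, ribulose phosphate epimerase, at 8 h, where 4.34% of all genes were called lower. RPE1 had 327, 275 and 268 TPM before heat and 124, 125 and 149 at 8 h, with no overlap between the groups. Its log2 fold change was -1.02 ± 0.16 (SE, edgeR adjusted p = 1.26e-06). The call rests on single libraries near the threshold, since RPE1 moved by -0.92 (edgeR adjusted p = 5.96e-05) without pre-heat library A and by -0.99 (edgeR adjusted p = 1.71e-05) without the treated libraries A. At 16 and 24 h RPE1 moved by -0.90 ± 0.16 and -0.70 ± 0.16 on the log2 scale, both below the fold threshold although both passed on adjusted p. RPE1 also passed lower at 0.5 and 4 h, with -0.41 and -0.39, so that it passed at 5 of the 8 time points. Its mean TPM was then at 60.15% and 53.5% of pre-heat. TPI1 passed lower at 16 h, with -0.40.

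By adjusted p alone, without the fold and TPM criteria, several genes of the reduction and regeneration steps were higher in the early hours at 35°C. At 1 h these were 7 of the 10 genes, PGK1, GAP3, FBA3, SEBP1, TRK1, RPI1 and CP12, against 20.3% of all genes. GAP3, the chloroplast glyceraldehyde phosphate dehydrogenase, had 804, 861 and 883 TPM before heat and 1071, 1148 and 1058 at 1 h, and its log2 fold change was 0.82 ± 0.20 (SE, edgeR adjusted p = 0.000481). FBA3 went from 1210.5, 1219 and 1211 TPM to 1475, 1558 and 1527 TPM, and its log2 fold change was 0.79 ± 0.16 (SE, edgeR adjusted p = 5.27e-05). In both genes all 3 heat libraries lay above all 3 pre-heat libraries. These higher values depended on the scaling. With limma on log2(TPM + 1) 1 gene passed higher at 1 h, FBA3 with 0.32, against 4.49% of all genes. RPE1 with -0.59 and TPI1 with -0.41 passed lower, against 39.8% of all genes, and with library size 3 of the 10 genes were higher and 1 lower. From 8 h on, none of the 10 genes was higher by adjusted p alone.

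At 40°C the genes of the cycle differed in their course, and RPE1 was called most often. Of 80 pairs 10 were called, all lower, and 7 of the 10 belonged to RPE1. From 0.5 h to 24 h in order, 15.3, 13.4, 10.7, 8.38, 8.46, 9.24 and 10.3% of all genes were called lower. At heat 0 h no gene of the cycle was called, against 12.3% of all genes in either direction. There, 4 of the 10 genes had an unadjusted p under 0.05 in edgeR and none was called with DESeq2 or limma.

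RPE1, which interconverts xylulose phosphate and ribulose phosphate, had 318, 321 and 310.2 TPM before heat. It was at 301, 222 and 222 TPM when the temperature was reached and at 72.5, 68.7 and 92.6 TPM at 0.5 h. No library from 0.5 h to 24 h reached the lowest pre-heat library, and the lowest levels came at 8 h with 89.6, 56.1 and 61.5 TPM. The log2 fold change was -1.47 ± 0.16 (SE) at 0.5 h, -1.78 ± 0.17 at 1 h and -1.11 ± 0.16 at 2 h. It was -1.88 ± 0.17 at 4 h and reached -2.27 ± 0.17 (SE, edgeR adjusted p = 6.11e-18) at 8 h. At 16 and 24 h it was -1.28 ± 0.16 and -1.57 ± 0.16. All 7 calls held with library size and on the log2(TPM + 1) scale.

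TPI1, which interconverts the triose phosphates, was called lower at both ends of the 40°C heat. It fell from 121, 108 and 118 TPM to 23.2, 39.4 and 52.1 TPM at 0.5 h and stood at 59.0, 52.1 and 56.4 TPM at 24 h. The log2 fold changes were -1.12 ± 0.13 (SE, edgeR adjusted p = 2.33e-11) and -1.20 ± 0.13 (SE, edgeR adjusted p = 5.1e-12). At 1 to 16 h TPI1 lay between -0.91 and -0.72 on the log2 scale and passed on adjusted p at each time point without reaching the fold threshold. The call at 24 h was made on the log2(TPM + 1) scale and not with library size, where TPI1 was at -0.999. PRK1, phosphoribulokinase, was called lower at 24 h. It had 592, 542 and 611 TPM before heat and 334, 269 and 314 TPM at 24 h, and its log2 fold change was -1.08 ± 0.20 (SE, edgeR adjusted p = 2.79e-06). PRK1 was not called on the log2(TPM + 1) scale, with -0.93, or with library size, with -0.88. In the first hour library A was lower than the other two for PRK1, with 206, 329 and 382 TPM at 0.5 h and 208, 425 and 482 TPM at 1 h in libraries A, B and C. RPI1, ribose phosphate isomerase, dipped at 4 h to 148, 125 and 129 TPM from 282, 273 and 259.6 TPM before heat. Its log2 fold change of -0.90 ± 0.14 (SE) missed the fold threshold, which it passed on the log2(TPM + 1) scale with -1.02.

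GAP3, FBA3 and SEBP1 lay above their pre-heat levels at 2 h of 40°C, although none met the fold threshold. By adjusted p alone 4 of the 10 genes were higher there and 2 lower, against 30.4% of all genes higher and 28.5% lower. GAP3 went from 878, 866 and 829 TPM to 1423, 1547 and 1379 TPM, so that every heat library was above every pre-heat library, and its log2 fold change was 0.88 ± 0.20 (SE, edgeR adjusted p = 0.000116). FBA3 reached 1715, 1869 and 1754 TPM at 2 h, the highest level of any of the 10 genes in any group, and its log2 fold change was 0.65 ± 0.16 (SE, edgeR adjusted p = 0.00045). SEBP1, sedoheptulose bisphosphatase, reached 972.5, 762 and 714 TPM and a log2 fold change of 0.66 ± 0.17 (SE, edgeR adjusted p = 0.000789). The fourth gene was CP12, with a log2 fold change of 0.35. GAP3, FBA3 and SEBP1 also passed on adjusted p at 2 h on the log2(TPM + 1) scale, and CP12 did not. By 24 h at 40°C GAP3 and FBA3 were at 89.98% and 84.6% of their pre-heat mean TPM, and SEBP1 at 111%. PGK1, phosphoglycerate kinase, and TRK1, transketolase, were not called at any heat time point of either treatment. For CP12 library A stood above B and C at 8 h and 16 h of 40°C, with 1645, 1106 and 1142 TPM and 1734, 1259 and 1194 TPM in A, B and C.

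**Figure D2:**
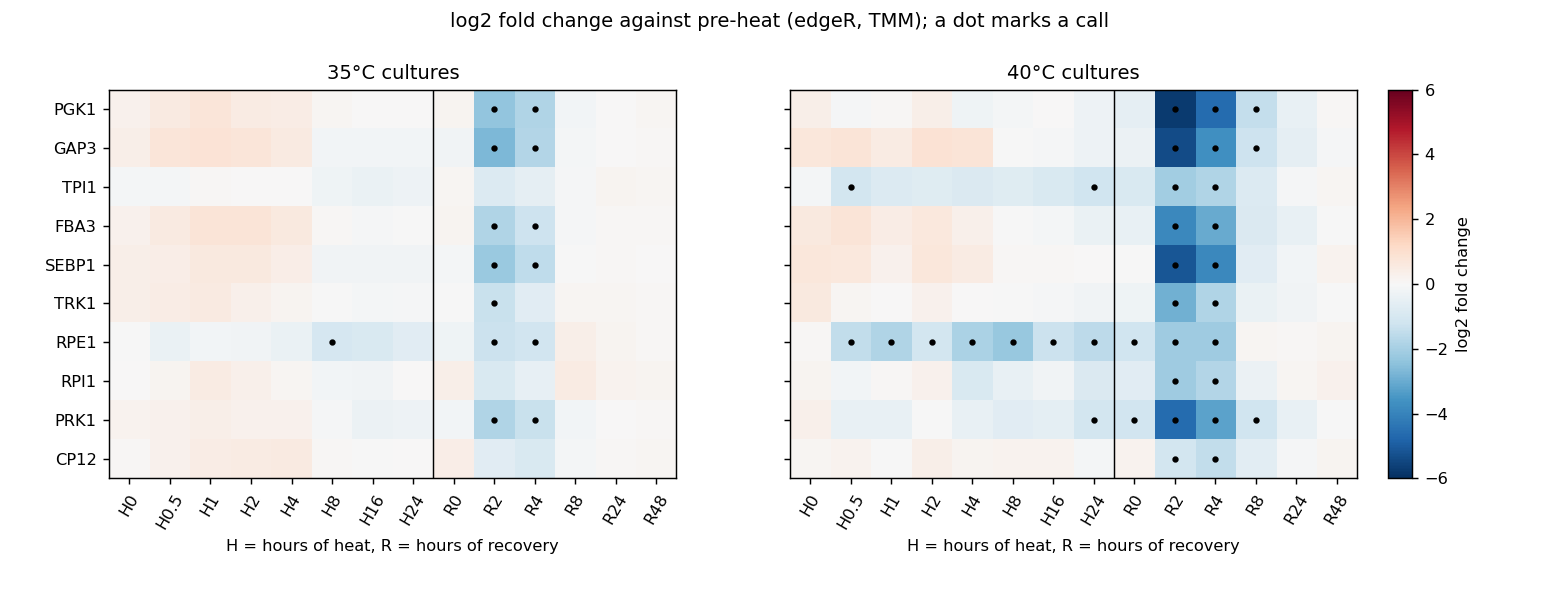
The log2 fold change against pre-heat (edgeR with TMM factors, colour scale from -6 to 6) of each of the 10 genes (y axis) at each time point (x axis, hours of heat H and of recovery R), for the 35°C cultures (left) and the 40°C cultures (right). Dots mark calls, which stand at 14 squares of the 35°C panel and 35 of the 40°C panel, and the deepest colours are at 40°C recovery 2 h.

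The largest changes came after the heat, 2 h into the recovery at 25°C. After 35°C, 7 of the 10 genes were called lower at 2 h, against 5.21% of all genes, and all 10 passed lower on adjusted p, against 18.2% of all genes. After 40°C all 10 were called lower, against 11.7% of all genes. The median log2 fold change of the 10 genes was -1.57 after 35°C and -3.38 after 40°C, where the median over all genes tested was 0.06 and 0.07. No gene of the cycle was called higher at any recovery time point of either treatment.

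The largest estimates were those of the reduction steps, although genes were not tested against each other. PGK1 had 401, 403 and 399 TPM before heat and 115, 126 and 121 TPM at 2 h after 35°C. In the 40°C cultures it went from 374, 381 and 399 TPM to 10.9, 17.6 and 15.0 TPM. In both treatments every recovery library lay below every pre-heat library. The log2 fold change was -2.35 ± 0.19 (SE, edgeR adjusted p = 1.05e-16) after 35°C and -5.74 ± 0.22 (SE, edgeR adjusted p = 4.83e-34) after 40°C. GAP3 showed the same order of size. It stood at 220.0, 183 and 201 TPM at 2 h after 35°C and at 54.0, 44.4 and 29.6 TPM after 40°C, against 878, 866 and 829 TPM before 40°C heat. Its log2 fold change was -2.69 ± 0.21 (SE, edgeR adjusted p = 5.07e-17) and -5.37 ± 0.24 (SE, edgeR adjusted p = 1.69e-30). As a share of transcripts PGK1 retained 30.1% of its pre-heat mean TPM after 35°C and 3.77% after 40°C, and GAP3 23.7% and 4.98%.

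Within the triose and hexose steps the estimates were larger for the aldolase than for the isomerase. FBA3 was at 518, 509.6 and 568 TPM 2 h after 35°C and at 135, 192 and 181 TPM after 40°C, from pre-heat levels over 1200 TPM. Its log2 fold change was -1.81 ± 0.17 (SE, edgeR adjusted p = 3.87e-14) and -3.88 ± 0.18 (SE, edgeR adjusted p = 2.47e-29). TPI1 was at 99.0, 105 and 106 TPM and 46.9, 57.1 and 61.6 TPM. With a log2 fold change of -0.80 ± 0.13 (SE) TPI1 was not called after 35°C, and after 40°C it was called lower with -2.08 ± 0.14 (SE, edgeR adjusted p = 9.25e-22). TPI1 was then at 47.7% of its pre-heat mean TPM, and it had been at 48.3% at the end of the heat.

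The regeneration enzymes were split. SEBP1 and PRK1, which catalyse irreversible steps specific to the cycle, fell as far as GAP3 to within 1 log2 unit after 40°C. SEBP1 went from 569, 563 and 551 TPM to 40.9, 37.2 and 21.9 TPM with a log2 fold change of -5.11 ± 0.21 (SE, edgeR adjusted p = 1.26e-32). PRK1 went from 592, 542 and 611 TPM to 41.9, 55.8 and 46.1 TPM with a log2 fold change of -4.62 ± 0.23 (SE, edgeR adjusted p = 4.81e-28). After 35°C the log2 fold changes were -2.21 ± 0.18 (SE) for SEBP1 and -1.81 ± 0.20 for PRK1. TRK1, which moves small carbon units between sugar phosphates, had smaller values. It stood at 307, 371 and 403 TPM after 35°C and at 171, 188 and 119 TPM after 40°C, and its log2 fold change was -1.34 ± 0.15 (SE, edgeR adjusted p = 1.23e-10) and -2.88 ± 0.16 (SE, edgeR adjusted p = 6.51e-25). RPE1 was at 153, 172 and 121 TPM after 40°C, which overlapped with its level at 24 h of heat, 133, 115 and 108 TPM. Against pre-heat its log2 fold change was -2.12 ± 0.17 (SE, edgeR adjusted p = 6.81e-18), and after 35°C it was -1.29 ± 0.16 (SE, edgeR adjusted p = 2.42e-09). RPI1 was at 211, 219 and 232 TPM after 35°C, where its log2 fold change of -0.89 ± 0.14 (SE) was not called. After 40°C it was at 121, 135 and 123 TPM, with -2.12 ± 0.15 (SE, edgeR adjusted p = 1.35e-20).

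The smallest estimates were those of CP12. It had 1032, 1099.7 and 1013 TPM before heat and 967, 903 and 1065 TPM at 2 h after 40°C, and these groups overlapped. In counts scaled by TMM its log2 fold change was -1.12 ± 0.15 (SE, edgeR adjusted p = 2.01e-09), a call that library size (-0.67) and the log2(TPM + 1) scale (-0.10) did not make. After 35°C its log2 fold change was -0.67 ± 0.15 (SE), not called. The distance between CP12 and PGK1 in 1 comparison does not depend on the scaling factor, and it was 4.62 log2 units after 40°C with TMM factors, with library size 4.62, and 1.68 log2 units after 35°C.

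The other scalings kept most of the calls at 2 h. With limma on log2(TPM + 1) there were calls for 5 of the 10 genes, all lower, after 35°C, namely PGK1, GAP3, FBA3, SEBP1 and PRK1, against 1.47% of all genes, and TRK1 and RPE1 missed the fold threshold with -0.73 and -0.67. After 40°C 9 of 10 were called by limma, all but CP12, against 5.96% of all genes. TPI1, RPE1 and RPI1 were near the threshold on that scale, with -1.06, -1.10 and -1.10. PGK1 was at -1.72 and -4.66 on the log2(TPM + 1) scale after 35°C and 40°C.

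**Figure D3:**
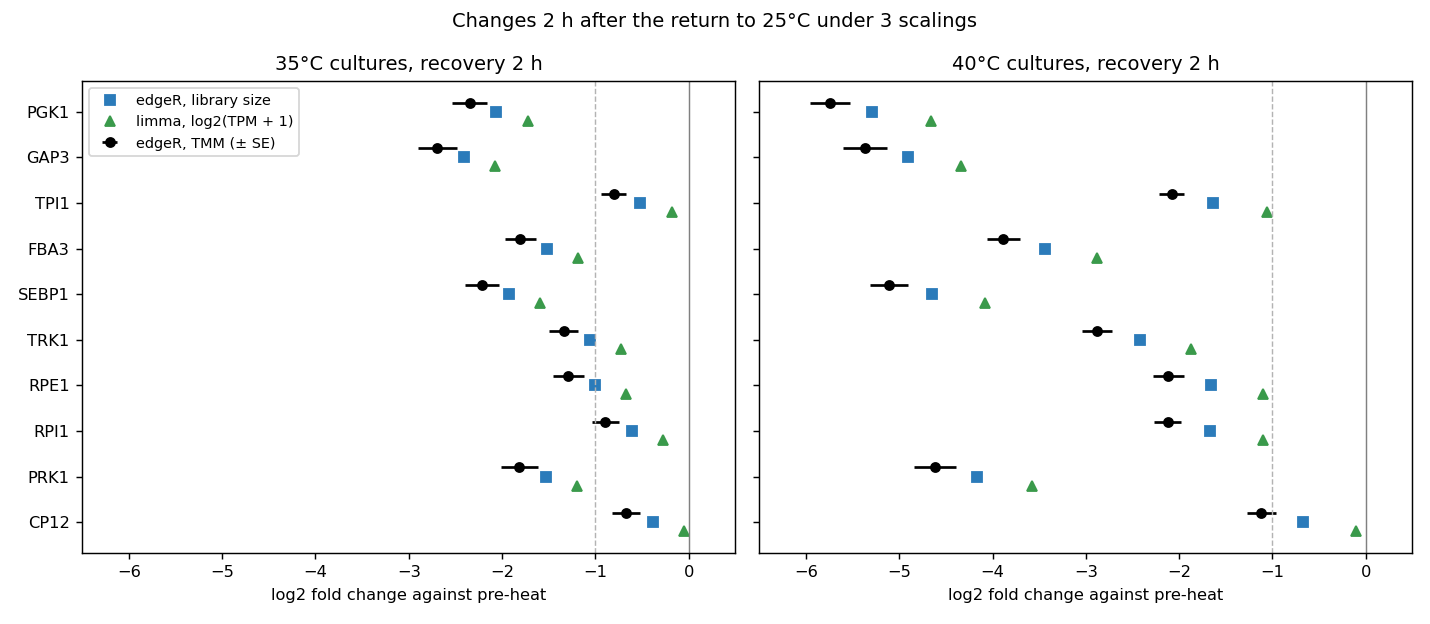
Log2 fold change against pre-heat (x axis) of the 10 genes (y axis) at recovery 2 h, after 35°C (left) and after 40°C (right), with edgeR and TMM factors (black, ± SE), edgeR and library size (blue) and limma on log2(TPM + 1) (green). The dashed line is the fold threshold. The 3 markers of a gene keep nearly the same distance from each other in all genes of a panel, and PGK1 lies at -5.74, -5.29 and -4.66 after 40°C.

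The calls came between recovery 0 h and 2 h, and none between heat 24 h and recovery 0 h. Against heat 24 h, none of the 10 genes was called at recovery 0 h in the 35°C cultures or in the 40°C cultures, against 7.31% and 21.9% of all genes in either direction. Unadjusted p was under 0.05 in edgeR for 4 and 3 of the 10 genes, and DESeq2 and limma called none. By adjusted p alone the direction of this step in the 40°C cultures depended on the scaling. With TMM factors 2 genes passed higher and 0 lower, with library size 6 passed lower, and on the log2(TPM + 1) scale 3 passed lower. The median log2 change of the 10 genes was -0.03, -0.39 and -0.27 in that order, and that of all genes -0.04, -0.40 and -0.13. Against recovery 0 h, 9 of the 10 genes were called lower at recovery 2 h in each treatment, with 7.41% of all genes called lower in the 35°C cultures and 13.6% in the 40°C cultures. The gene not called was TPI1 in the 35°C cultures, with -0.94 ± 0.13 (SE, edgeR adjusted p = 9.09e-09), and RPE1 in the 40°C cultures, with -0.90 ± 0.16 (SE, edgeR adjusted p = 1.77e-06). PGK1 was at 312, 212 and 225 TPM at 0 h and 10.9, 17.6 and 15.0 TPM at 2 h after 40°C, a log2 fold change of -5.20 ± 0.21 (SE, edgeR adjusted p = 5.77e-32). The call of RPE1 in the 35°C cultures was lost without the treated libraries B, with -0.87, and that of CP12 without the treated libraries A, with -0.97. TPI1 in the 40°C cultures kept -1.09 without the treated libraries A but lost the call because its mean TPM then differed by less than 1. On TPM this step was called by limma for GAP3, PGK1, FBA3 and SEBP1 in both treatments and for PRK1 and TRK1 in the 40°C cultures, and the other genes were not called. With library size the calls of TRK1, RPE1, RPI1 and CP12 in the 35°C cultures and of TPI1, RPI1 and CP12 in the 40°C cultures were not made. At recovery 0 h of 40°C, against pre-heat, 2 genes were called lower against 12.2% of all genes. These were RPE1 with -1.22 ± 0.16 (SE) and PRK1 with -1.17 ± 0.20 on the log2 scale. At recovery 0 h of 35°C none was called, against 11.1% of all genes in either direction, with 2 at an unadjusted p under 0.05 in edgeR and none called by DESeq2 or limma.

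At recovery 4 h the transcripts were still low. In the 35°C cultures 6 genes were called lower, PGK1, GAP3, FBA3, SEBP1, RPE1 and PRK1, against 3.35% of all genes, and TRK1 was no longer among them, with -0.68 ± 0.15 (SE). In the 40°C cultures all 10 were called lower, against 7.73% of all genes. PGK1 stood at 47.4, 27.7 and 26.5 TPM, with a log2 fold change of -4.63 ± 0.21 (SE, edgeR adjusted p = 2.24e-29), and GAP3 at 242, 96.3 and 105 TPM, with -3.67 ± 0.22 (SE, edgeR adjusted p = 3.41e-23). CP12 reached its lowest value against pre-heat here, with 843, 795 and 859.9 TPM and -1.46 ± 0.15 (SE, edgeR adjusted p = 1.2e-12). Library A was higher than B and C for most genes at 4 h in both treatments, as for FBA3 with 456, 279 and 252 TPM in the 40°C cultures. By limma on log2(TPM + 1) 6 of the 10 genes were called at 4 h after 40°C, not CP12, TPI1, RPI1 or TRK1, against 2.82% of all genes. After 35°C 3 were called, namely PGK1, GAP3 and SEBP1, against 1.05%. With library size 9 were called after 40°C, all but CP12, and the same 6 after 35°C.

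By recovery 8 h the 35°C cultures were back near pre-heat levels, and the 40°C cultures were not. None of the 10 genes was called at 8 h after 35°C, against 0.772% of all genes in either direction. There 2 of the 10 had an unadjusted p under 0.05 in edgeR, and DESeq2 and limma called none. RPI1 was the 1 gene that passed on adjusted p, and it was higher, as were 2.69% of all genes, with 408, 386 and 362 TPM at 8 h against 281, 269 and 252 TPM before heat and a log2 fold change of 0.49 ± 0.14 (SE, edgeR adjusted p = 0.0271). After 40°C 3 genes were called lower at 8 h, against 3.02% of all genes. PGK1 was at 238, 201 and 162 TPM with -1.42 ± 0.18 (SE, edgeR adjusted p = 1.77e-09), GAP3 at 479, 573 and 478 TPM with -1.24 ± 0.20 (SE, edgeR adjusted p = 5.92e-07), and PRK1 at 381, 374 and 317 TPM with -1.19 ± 0.20 (SE, edgeR adjusted p = 1.33e-06). These 3 changes on the log2(TPM + 1) scale were -0.96, -0.75 and -0.71, and limma called none of them. RPE1 went the other way in TPM, with 481, 447 and 491 TPM at 8 h, above every pre-heat library. This was 149% of its pre-heat mean and passed on adjusted p on the log2(TPM + 1) scale with 0.58 (limma, adjusted p = 0.00128). With TMM factors RPE1 was at 0.10 ± 0.16 (SE, edgeR adjusted p = 0.66), so that its rise depended on the scaling. No gene of the cycle was called at 24 h or 48 h of recovery in either treatment, where 0.0836% and 0% of all genes were called in either direction after 35°C and 1.18% and 0.0257% after 40°C. DESeq2 and limma called none there either, and unadjusted p was under 0.05 in edgeR for 4 of the 10 genes at 24 h after 40°C and for none in the other 3 comparisons.

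Summed over the 10 genes, the cycle took a smaller share of the transcripts at recovery 2 h. The sum was 5864.5 ± 92.0 TPM (SD, n = 3) before heat and 3075 ± 115 TPM (SD, n = 3) at 2 h in the 35°C cultures. In the 40°C cultures it was 5950.3 ± 79.6 TPM (SD, n = 3) before heat, 7388 ± 219 TPM (SD, n = 3) at 2 h of heat, 4452 ± 280.5 TPM (SD, n = 3) at recovery 0 h and 1776 ± 30.7 TPM (SD, n = 3) at recovery 2 h. CP12 held 978 TPM of the sum at that time point. After 48 h of recovery the sums were 5878 ± 30.3 TPM (SD, n = 3) and 6190.3 ± 309.8 TPM (SD, n = 3), for the 35°C and the 40°C cultures.

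**Figure D4:**
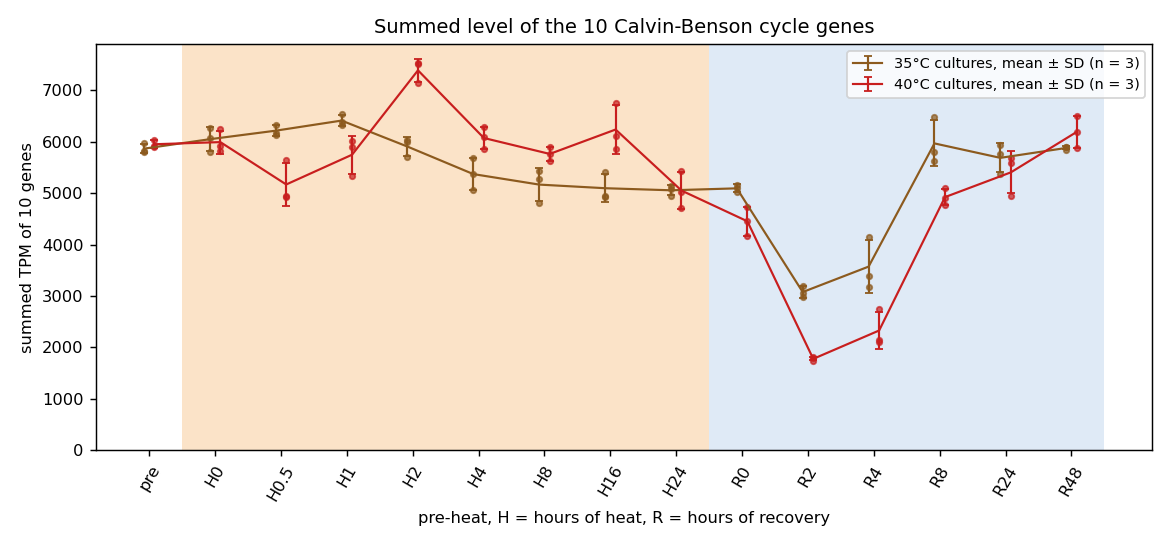
Summed TPM of the 10 genes (y axis, from 0) against pre-heat, hours of heat (H) and hours of recovery (R), for the 35°C (brown) and the 40°C cultures (red). Points are libraries, lines are means and bars are SD (n = 3). The 40°C sum falls from 5950 TPM before heat to 1776 TPM at recovery 2 h, and the 35°C sum from 5864.5 to 3075 TPM.

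Whether a change differed between the temperatures was tested directly, by subtracting the change at 35°C from that at 40°C at the same time point. A difference was called with an adjusted p under 0.05 and a size over 1 on the log2 scale. Of 140 pairs 27 were called, all of them lower at 40°C. At recovery 2 h 8 of the 10 genes were called, against 13.7% of all genes. The difference was -3.39 ± 0.26 (SE, edgeR adjusted p = 1.77e-17) for PGK1, -2.90 ± 0.25 (SE) for SEBP1, -2.80 ± 0.28 for PRK1 and -2.67 ± 0.28 for GAP3. For FBA3, TRK1, TPI1 and RPI1 it lay between -2.08 and -1.23. RPE1 passed on adjusted p alone with -0.83 ± 0.23 (SE), and CP12 did not pass, with -0.45 ± 0.21 (SE, edgeR adjusted p = 0.0923). At 4 h all 8 of these were called again, against 6.98% of all genes, from -2.84 for PGK1 to -1.11 for TRK1. On adjusted p alone all 10 passed lower there, CP12 with -0.57, while the median over all genes was -0.04. With library size 9 passed lower, and on the log2(TPM + 1) scale 8. The share of all genes passing lower on adjusted p alone is not given here, so these counts do not set the cycle apart. At 8 h PGK1, GAP3 and PRK1 were called, against 3.42% of all genes, with differences of -1.26, -1.11 and -1.03. By limma on log2(TPM + 1) 6 genes were called at 2 h, all but TPI1, RPE1, RPI1 and CP12, against 5.05% of all genes, with 5 called at 4 h, not TPI1, TRK1 or RPI1, and none at 8 h. With library size the same 8 were called at 2 h, the same 5 at 4 h, and PGK1 alone at 8 h.

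In heat the difference between temperatures was largely that of RPE1. It was called lower at 40°C at 0.5, 1, 4 and 8 h, where 13.9%, 9.23%, 4.39% and 6.42% of all genes were called lower. The RPE1 differences were -1.06, -1.64 ± 0.23 (SE, edgeR adjusted p = 4.45e-08), -1.49 and -1.25, and all 4 were also called on the log2(TPM + 1) scale. RPI1 was called at 4 h with -1.01 ± 0.20 (SE), a call that library size (-0.64) and the log2(TPM + 1) scale (-0.61) did not make. TPI1 at 0.5 h missed the fold threshold with -0.998 ± 0.19 (SE) and was called on the log2(TPM + 1) scale with -1.21. At recovery 0 h PRK1, RPI1 and TPI1 were called, against 13.2% of all genes, with -1.01, -1.02 and -1.04, with library size TPI1 alone was called, and on the log2(TPM + 1) scale none of the 3. These 3 calls, that of RPI1 at 4 h, that of RPE1 at 0.5 h and that of PRK1 at recovery 8 h lie close to the threshold, and each is lost when 1 of several libraries is left out, down to -0.92 for RPI1 at recovery 0 h without the treated libraries B of the 35°C cultures.

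Over the 30 group means of log2(TPM + 1) the genes sorted into sets with like profiles, here described after their values were seen. PGK1, GAP3, FBA3, SEBP1, PRK1 and TRK1 had Pearson correlations of log2(TPM + 1) between 0.85 and 0.99 with one another. RPE1, RPI1 and TPI1 had 0.67 to 0.79 among themselves and -0.05 to 0.67 with those 6 genes. CP12 had -0.17 to 0.26 with the other 9. On TMM-scaled CPM (counts as a share of the library) the same ranges were 0.93 to 0.99, 0.72 to 0.87, 0.41 to 0.92 and 0.30 to 0.88. The distance of CP12 from the others was thus much smaller on that scale. RPE1, RPI1 and TPI1 did not stand apart there, since their highest r with those 6 genes, 0.92, exceeded the highest among themselves, 0.87. The 30 points share libraries and scaling factors across genes, and these values describe the profiles without a test.

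**Figure D5:**
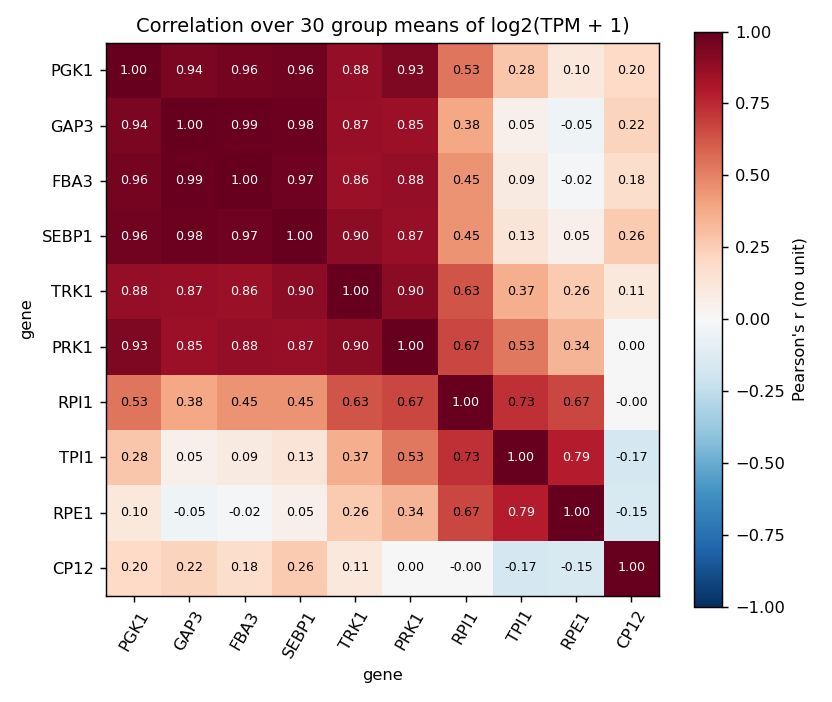
Pearson's r (colour and number, no unit) between the profiles of each pair of the 10 genes, over the 30 group means of log2(TPM + 1). The block of PGK1, GAP3, FBA3, SEBP1, TRK1 and PRK1 has values of 0.85 to 0.99, and CP12 has values of -0.17 to 0.26 with the other genes.

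Genes outside the 10 were ranked by the likeness of their profile. The mean profile of the 10 genes, z-scored per gene, was compared with 1026 other tested genes with a symbol over the 30 group means. Symbols came from tables of the study and from the lists used here, which include the light reactions. Most of the 15541 genes tested were therefore not searched, and closer profiles may lie among them. On log2(TPM + 1) the 5 highest correlations were with PETO (0.94), a subunit associated with the cytochrome b6f complex, PSAK (0.93), a subunit of photosystem I, FNR1 (0.93), the ferredoxin-NADP reductase, BCC1 (0.93) and PSB27 (0.93), a photosystem II assembly factor. On TMM-scaled CPM they were PSAK, PSAN, FBP2, LHCA4 and PSAH, and PSAK was the 1 gene shared by the lists. For CP12 alone the 5 nearest profiles shared no gene between the scales and had r of at most 0.67 on log2(TPM + 1), with RPI2. On TMM-scaled CPM they were APX4 (0.92), LHCBM2 (0.92), IPY1 (0.91), TEF4 (0.91) and LHCBM1 (0.91).

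Rubisco and its activase were tested with the cycle as related genes. Of 5 listed genes 3 were tested, the small subunit genes RBCS1 and RBCS2 and the activase RCA1, which removes inhibitory sugar phosphates from rubisco. RCA1 fell with the cycle, with a log2 fold change of -2.16 ± 0.17 (SE, edgeR adjusted p = 5.07e-17) at recovery 2 h after 35°C and -4.00 ± 0.18 (SE, edgeR adjusted p = 6.96e-30) after 40°C, and it was called higher at 1 h of 40°C with 1.33 ± 0.16 (SE). RBCS1 and RBCS2 were called in opposite directions in 40°C heat. RBCS1 was at -1.44 ± 0.14 (SE) after a day of 35°C and -2.48 ± 0.15 after a day of 40°C, both called lower, while RBCS2 was called higher at 8 h of 40°C with 1.28 ± 0.21. At recovery 2 h RBCS1 was called lower in both treatments, with -1.32 ± 0.14 (SE) and -2.79 ± 0.15, and RBCS2 was not, with -0.55 ± 0.20 and -0.75 ± 0.20. On the log2(TPM + 1) scale RBCS1 was at -0.70 after 35°C, not called, and -1.77 after 40°C, called lower, and RBCS2 turned positive, at 0.08 and 0.27, not called. The pair are neighbouring genes of near-identical sequence, so the division of reads between them is uncertain.

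The 9 listed isozymes and fructose bisphosphatases did not share a direction. At recovery 2 h 4 were called lower and 1 higher after 35°C, where 5.21% of all genes were called lower and 3.22% higher. After 40°C 3 were called lower and none higher, where 11.7% of all genes were called lower and 17.5% higher. FBP2, a fructose bisphosphatase, had log2 fold changes of -1.30 after 35°C and -2.31 after 40°C, and the aldolase FBA2 of -2.73 and -3.37, all called lower. A second fructose bisphosphatase gene, FBP1, was called lower with -2.17 and -1.95 and had been called lower at 1 h of 40°C, with -3.54 ± 0.42 (SE). FBA1, another aldolase, was called higher in heat, with 1.55 ± 0.18 in the 35°C and 2.38 ± 0.18 in the 40°C cultures at 4 h, lower at recovery 2 h after 35°C with -1.09 ± 0.18, and not called after 40°C with 0.30 ± 0.18. GAP1, another glyceraldehyde phosphate dehydrogenase, was called lower at 1 h of 40°C with -3.30 ± 0.42 and higher at 8 h of 35°C with 1.79 ± 0.40 and at recovery 2 h after 35°C with 1.55 ± 0.40. RPE2 and FBA4 were called lower at 1 h of 40°C, with -2.06 ± 0.28 and -2.05 ± 0.26. SBP2 was called lower at 0.5 h of 40°C with -1.34 ± 0.15, and RPI2 higher at 16 h of 40°C with 1.90 ± 0.20. The isozyme calls at recovery 2 h depended on the scaling. On the log2(TPM + 1) scale 2 were called lower and 1 higher after 35°C, where 1.47% and 11.6% of all genes were called. After 40°C 2 were called lower and 4 higher, against 5.96% and 36.8% of all genes. The 4 higher were SBP2, FBA1, FBA4 and GAP1, with 1.34, 1.30, 1.08 and 1.22, and the 2 lower after 40°C were FBP2 and FBA2, with -1.28 and -2.01. FBP2 and FBA1 were not called after 35°C on that scale, and FBP1 was not called after 40°C.

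The thioredoxin system of the chloroplast, which carries the light signal to the cycle's enzymes, was listed as 9 genes. Besides thioredoxins these include the reductase genes NTRC1 and FTR catalytic chain. At recovery 2 h 3 were called lower after 35°C, against 5.21% of all genes, and 4 after 40°C, against 11.7%, and none higher. Both f-type thioredoxins, the form that activates cycle enzymes, were among them. TRXF2 changed by -2.18 ± 0.21 (SE, edgeR adjusted p = 3.03e-13) after 35°C and -5.74 ± 0.25 (SE, edgeR adjusted p = 1.6e-30) after 40°C, and the second f-type gene (Cre01.g066552) by -1.77 ± 0.25 (SE) and -4.74 ± 0.28. NTRC1, a thioredoxin reductase with its own thioredoxin domain, was called lower after 35°C with -1.63 ± 0.13 and had been called higher at 0.5 h of 40°C with 2.01 ± 0.13. TRXX was called lower after 40°C with -2.54 ± 0.14. In early 40°C heat TRXY rose and TRXZ fell, with 2.51 ± 0.18 and -2.32 ± 0.14 at 0.5 h. On the log2(TPM + 1) scale 2 of the 9 were called lower at recovery 2 h after 35°C, without NTRC1 at -0.92, against 1.47% of all genes. After 40°C 3 were called lower and 2 higher, where 5.96% of all genes were called lower and 36.8% higher.

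The light reactions, which supply ATP and NADPH to the cycle, were listed as 42 genes, of which 38 were tested. At recovery 2 h 32 of the 38 were called lower after 35°C, against 5.21% of all genes, with a median log2 fold change of -1.36. After 40°C 36 were called lower, against 11.7% of all genes, and the median was -3.46. There 1 gene, the light-harvesting LHCBM9, was called higher, as were 17.5% of all genes. On the log2(TPM + 1) scale 10 were called lower after 35°C, against 1.47% of all genes, with a median of -0.71. After 40°C 34 were called lower on that scale, against 5.96% of all genes, with a median of -2.47. The change at 40°C minus that at 35°C at recovery 2 h was called lower for 33 of the 38, against 13.7% of all genes, and higher for 1. The largest changes after 40°C were those of PETO, LHCA1 and LHCA5, with -5.98, -5.75 and -5.69 on the log2 scale. After 35°C they were LHCBM4, LHCBM6 and PETO, with -2.78, -2.63 and -2.42. LHCBM genes include near-identical copies, and their values are uncertain. At recovery 8 h after 40°C 20 of the 38 were still called lower with TMM factors, where 3 of the 10 genes of the cycle and 3.02% of all genes were. On the log2(TPM + 1) scale none of the 10 was called there, and the 38 are not given on that scale.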

How the data were processed

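RNA-seq of 90 libraries was used, 3 for each of 15 time points of 2 treatments, and groups were taken from the sample labels. Per the study's methods and the labels, the authors cleaned reads with BBDuk and BBMap, ran FastQC, aligned with STAR to version 5.6 of the genome, discarded reads with more than 1 locus, and used HTSeq for counting, with tool versions not given in the sources used here. Raw read counts make up the deposited count table. TPM, which the authors computed per library from counts and gene length, make up the deposited TPM files. Libraries held 10872030 to 35917831 counted reads, and the spread between replicates, rather than counting error, set the precision.

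A minimum of 10 reads in at least 9 libraries left 15541 genes. Counts were fitted in edgeR 4.0.16 (R 4.3.3) with TMM factors and 1 mean per group over all 90 libraries, and 47 comparisons were tested with the quasi-likelihood F-test, with Benjamini-Hochberg adjustment over all genes within a comparison. This replaced the study's mixed model on TPM but kept its thresholds: adjusted p under 0.05, log2 fold change over 1 and mean TPM difference of 1 or more. The procedure was tested on simulated data. Alternatives were other size factors, DESeq2 1.42.0, limma 3.58.1 on log2(TPM + 1) and log2(TPM + 0.1), no filter, fits on fewer libraries, a replicate block and leaving out each replicate.

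The rule for named genes took all 10 genes, every tested gene of the rubisco and isozyme lists, and up to 3 called genes of the thioredoxin and light reaction lists. It also took the 5 genes most similar in profile among those with a symbol. Comparisons without a call are given by counts, and related genes at selected time points. The 10 genes and the lists were set by function, with earlier results of these data known. Genome coordinates and sequences were not used here.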

Additional observations from a re-analysis of the deposited data

Results flagged for a closer look

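For 9 of the 10 genes the change against pre-heat differed between the 40°C and the 35°C cultures at 1 or more time points, by edgeR's test of the difference itself with an adjusted p under 0.05 and a size over 1 on the log2 scale, and in each case the value was lower at 40°C. Of all genes tested, 39.4% were called lower at 40°C at 1 or more of the 14 time points. The difference largest in size came at recovery 2 h for PGK1 (-3.39), SEBP1 (-2.90), PRK1 (-2.80), GAP3 (-2.67), FBA3 (-2.08) and TRK1 (-1.54), at recovery 4 h for TPI1 (-1.29) and RPI1 (-1.26), and at 1 h of heat for RPE1 (-1.64). PRK1, RPE1 and RPI1 were called at 4 time points each, PGK1, GAP3 and TPI1 at 3, and FBA3, SEBP1 and TRK1 at 2. CP12 was called at none of the 14 time points, with an unadjusted p under 0.05 in edgeR at 4 of them and none called by DESeq2 or limma. On adjusted p alone it passed lower at 1 of them, recovery 4 h, with -0.57. The cultures differed between the treatments, so these differences and those between cultures cannot be told apart.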

How the results depend on the processing

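The number of called gene and time point pairs was 1 during 35°C heat, 13 in the recovery from it, 10 during 40°C heat, 25 in the recovery from it, 27 for the difference between temperatures, 18 for the steps of cooling and 0 between the pre-heat sets. With limma on log2(TPM + 1) or log2(TPM + 0.1) it was 8 in 35°C recovery, 16 for the difference and 10 for the steps of cooling, and with library size alone 11 for the steps of cooling. With adjusted p alone it was 26 during 35°C heat, 23 after it, 39 during 40°C heat and 51 for the difference. That rule passed many genes, as with 20.3% of all genes higher at 1 h of 35°C. At 2 h of 40°C it passed 30.4% of all genes higher and 28.5% lower, so these counts alone do not set the cycle apart. Counts within a factor of 1.5 of those of edgeR are left out of this list, although some of them fell. In 40°C recovery limma on log2(TPM + 1) called 2, 9, 6 and 0 of the 10 genes at 0, 2, 4 and 8 h. With TMM factors edgeR called 2, 10, 10 and 3. For the difference, library size called 1, 5 and 1 genes at recovery 0, 4 and 8 h, against 3, 8 and 3 with TMM factors. At 0.5 h of heat it called 3 against 1. Leaving out 1 replicate gave 0 to 1, 13 to 14, 10, 25 to 26, 22 to 31 and 17 to 19 pairs, in the order above, and 0 between the pre-heat sets, and the 0 in 35°C heat came without pre-heat library A. DESeq2 gave the same counts as edgeR for each of these results.

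Of 94 called values none changed sign under any alternative run. Library size alone lost 19 calls, limma on log2(TPM + 1) lost 34, DESeq2 lost 1, and leaving out 1 replicate letter lost 10. A fit with a replicate block gave 1, 13, 10, 25, 28, 18 and 0 pairs and lost none of the 94 calls. The sources used here do not say that a letter marks 1 culture, so the block was kept as an alternative. The deviations of same-letter libraries correlated with r of -0.09 to 0.42 (median 0.096), and all 3 letters were over 0.1 in 4 of 28 comparisons. A total of 61 of 84 libraries correlated best with their own letter, a hint from the data, not the design, that letters are linked. Depth did not limit these genes, whose lowest count was 575.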
